A study of Mus musculus with 9 samples.

Results

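The 8 genes described here encode chains of non-fibrillar collagens: 4 chains of type VI collagen (Col6a1, Col6a2, Col6a3 and Col6a5), both chains of type VIII (Col8a1 and Col8a2), and the single chains of type XIII (Col13a1) and type XVI (Col16a1). They were taken by gene symbol from the 16165 genes of a table of lung gene expression, with earlier results of these data known. Total lung RNA was sequenced in 9 libraries, 3 in each of 3 groups of mice. The labels number them as separate samples and do not say whether each is 1 mouse, so p-values measure the spread between these samples. Control mice, labelled as control genotype, received vehicle. TGFα mice, labelled for transforming growth factor alpha and given doxycycline (Dox) for 6 weeks, received either vehicle or pirfenidone, an antifibrotic drug, during the last 3 weeks. The labels name no Dox for the control samples, the wording of the series description leaves it unclear, and no control mice on pirfenidone are in the table. The sources used here do not give strain, age or the promoter that drives the transgene.

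Type VI collagen forms beaded microfibrils close to cell surfaces and basement membranes. Its α1, α2 and α3 chains join into 1 unit before secretion, α3 is the longest of the main chains, and the α5 chain can take the place of α3. Type VIII collagen builds open hexagonal networks in the walls of vessels and under some epithelia, from short α1 and α2 chains. Type XIII spans the plasma membrane at sites of cell adhesion, and type XVI belongs to the collagens with interrupted helices, which sit on the surface of larger fibrils and filaments. In the lung these collagens are made largely by fibroblasts, smooth muscle cells, pericytes and other mesenchymal cells.

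In the mouse genome (RefSeq on GRCm38.p6), Col6a1 lies on chromosome 10 from 76708792 to 76726044 and Col6a2 beside it from 76595756 to 76623630, with 85161 bases between them. Col6a3 lies on chromosome 1 (90766860 to 90844001), Col6a5 on chromosome 9 (105856070 to 105962463) and Col8a1 on chromosome 16 (57624256 to 57754737). Col8a2 (126286794 to 126314330) and Col16a1 (130047817 to 130099277) share chromosome 4, and Col13a1 lies on chromosome 10 (61838234 to 61979206). Levels are RPKM, reads scaled to gene length and to the reads of the library, so the chains can be set side by side. Inside introns of Col6a3 and Col13a1 the annotation places 1 further gene each, neither of them listed in the table. Every chain passed the filter of more than 1 RPKM in at least 3 libraries, and each had between 219 and 8957 reads in every library.

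The 250 bases before the RefSeq start are shown for the 2 pairs of chains whose levels ran most closely together over the libraries, Col6a1 with Col6a2 and Col8a1 with Col16a1. Capitals mark matches, on either strand, to the AP-1 motif TGANTCA, the SP1 motif GGGCGG and the TATA motif TATAAA. For Col6a2 the window is that of the start at the gene's outer end, 1 of 2 starts listed. The start used for Col16a1 lies inside the gene range given above, so part of its window falls within that range. The same holds for Col6a3 and Col13a1, and the window of Col6a5 lies wholly within its gene range. The windows of Col6a3, Col6a5 and Col13a1 are counted below but not shown. The windows are chr10:76726045-76726294 (Col6a1), chr10:76623631-76623880 (Col6a2) and chr16:57754738-57754987 (Col8a1), all on the minus strand, and chr4:130047590-130047839 (Col16a1) on the plus strand.
Col6a1: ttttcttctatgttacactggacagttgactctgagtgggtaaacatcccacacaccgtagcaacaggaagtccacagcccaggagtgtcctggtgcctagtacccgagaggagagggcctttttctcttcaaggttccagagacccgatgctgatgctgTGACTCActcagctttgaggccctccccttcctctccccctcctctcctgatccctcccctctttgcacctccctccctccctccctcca
Col6a2: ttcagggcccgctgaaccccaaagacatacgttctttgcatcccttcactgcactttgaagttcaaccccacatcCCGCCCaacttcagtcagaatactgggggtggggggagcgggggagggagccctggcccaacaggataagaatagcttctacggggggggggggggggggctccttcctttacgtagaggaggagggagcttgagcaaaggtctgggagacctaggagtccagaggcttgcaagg
Col8a1: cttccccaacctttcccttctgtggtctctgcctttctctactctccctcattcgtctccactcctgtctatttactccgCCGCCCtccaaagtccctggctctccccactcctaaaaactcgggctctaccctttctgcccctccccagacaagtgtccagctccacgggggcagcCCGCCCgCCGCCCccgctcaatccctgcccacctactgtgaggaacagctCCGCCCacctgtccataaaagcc
Col16a1: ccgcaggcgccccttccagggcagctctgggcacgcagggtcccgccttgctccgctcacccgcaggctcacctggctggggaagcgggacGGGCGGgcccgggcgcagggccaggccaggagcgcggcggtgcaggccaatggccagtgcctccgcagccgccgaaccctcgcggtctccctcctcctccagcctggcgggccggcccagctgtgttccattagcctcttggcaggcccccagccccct
Of the 8 genes, Col6a1 alone held an AP-1 match (1, starting at base -90 from the start), and 6.75% of all 32851 RefSeq windows of this length hold one. SP1 matches numbered 4 in Col8a1 and 1 in Col16a1, and 32.7% of all windows hold at least 1. Both Col8a2 and Col8a1 had 4 SP1 matches, with 2 of the Col8a2 matches overlapping. The window of Col6a1 had none, and that of Col6a2 had 1. The window of the other Col6a2 start, not shown, had 3 SP1 matches. That of Col6a5 had 1, and those of Col6a3 and Col13a1 had none. A TATA match was found in Col13a1 alone, against 12.4% of all windows. These matches describe letters, not sites of binding.

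The libraries held 15474002 to 16923531 reads behind the values in the control group, 16327952 to 18874158 in the TGFα vehicle group and 11428709 to 14125367 in the pirfenidone group. All 8 markers of lung tissue were listed and passed the filter. Transcripts of skeletal muscle, a tissue outside the lung, were high in 4 libraries: the summed level of 12 muscle genes was 14.2 to 22.0 RPKM in the controls, 1484, 537 and 8.04 RPKM in the 3 TGFα vehicle libraries, and 397, 2394 and 20.2 RPKM in the 3 pirfenidone libraries. None of the 10 muscle genes tested passed in any comparison (limma-trend or voom, at most 1 with an unadjusted p under 0.05), and 1 of the 12, Myh4, was at 0 in a control library. Pirfenidone library 3 also had a lower summed level of 11 adventitial fibroblast genes, 738 RPKM against 1783 and 1712 RPKM in the other pirfenidone libraries. Dcn, the largest part of this sum, was at 254 RPKM there against 990 and 1017 RPKM. Dpt went the other way (42.2 RPKM against 23.9 and 26.0 RPKM), and Ebf2 lay between the other pirfenidone libraries. The sum of the 11 genes was 1004, 576 and 645 RPKM in the vehicle libraries and 666 to 881 RPKM in the controls. On the second principal component of all tested genes, vehicle library 1 (3.7) and pirfenidone library 3 (-16.4) lay between the other vehicle libraries (-26.9 and -27.1) and the other pirfenidone libraries (28.3 and 33.6). For the 8 chains, results that rest on these libraries are given with and without them. Tests of other genes are given with all libraries only. In whole lung, a change in the number of cells that make a collagen and a change in the RNA each cell makes cannot be told apart.

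In TGFα mice on vehicle, 2 of the 8 chains rose against controls (Col8a1 and Col16a1), 1 fell (Col6a3) and 5 did not pass the test. Over all 13849 genes tested, 12.0% rose and 11.2% fell in this comparison (limma-trend, adjusted p under 0.05). The median log2 difference of the 8 chains was 0.09, beside 0.04 for all genes. The comparison asks how the lung differs after TGFα induction, and the plot of levels by library shows each chain in every sample.

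**Figure D1:**
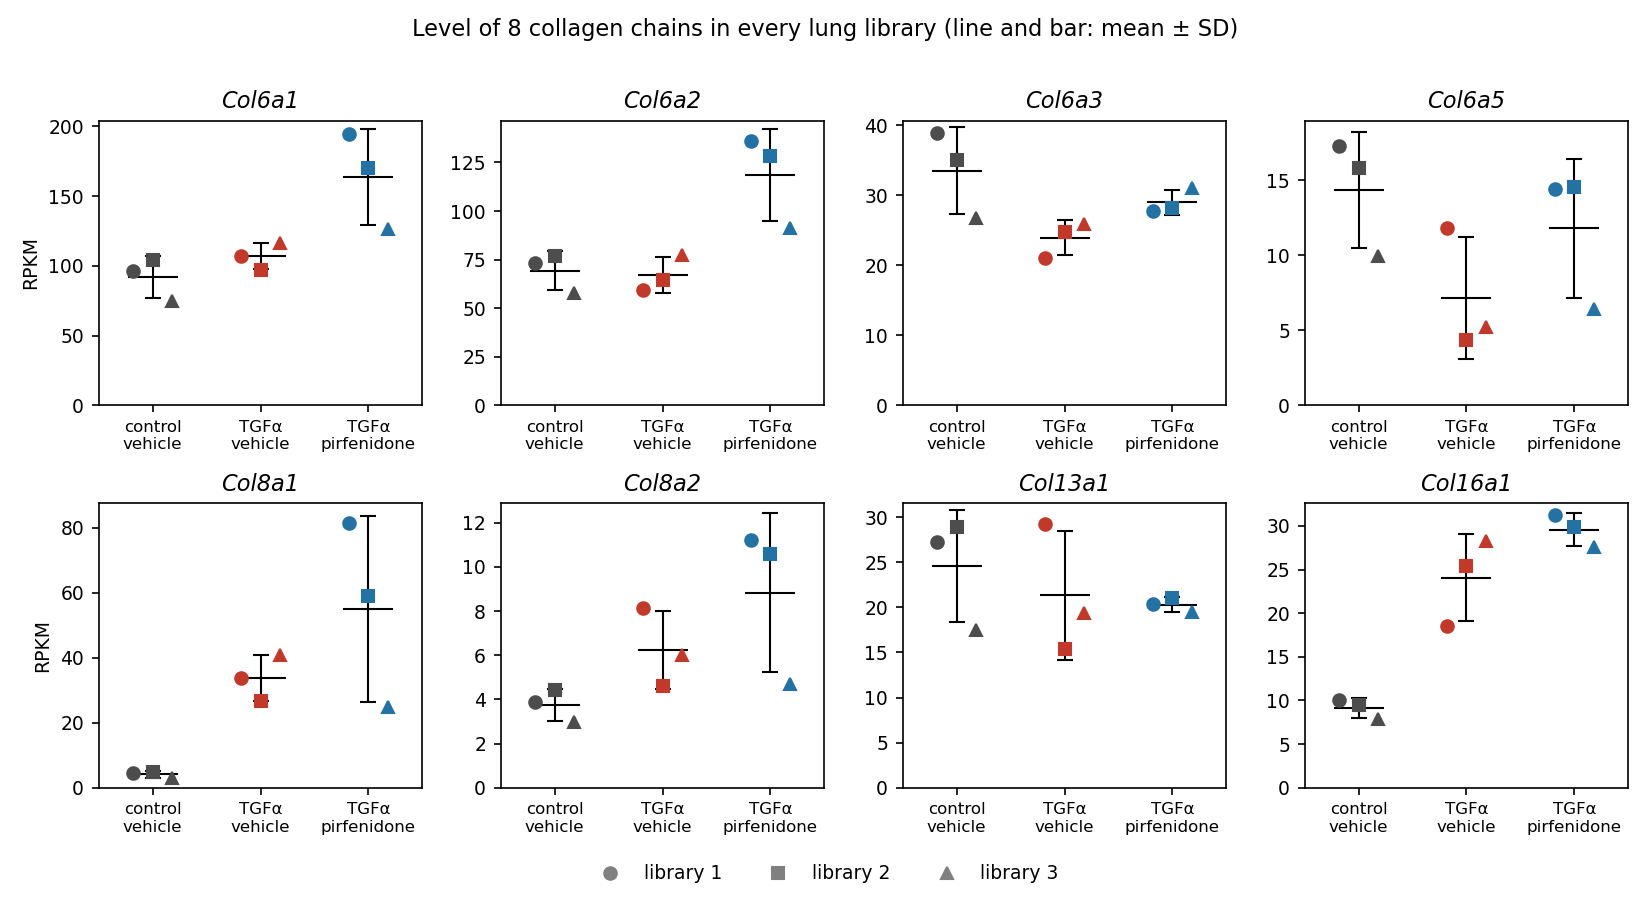
Level of each of the 8 collagen chains in RPKM (y axis, from 0) in the 3 groups (x axis). Each point is 1 library, its shape gives the library number, and the line with its bar is the group mean ± SD (n = 3). Col8a1 and Col16a1 in both TGFα groups lie above every control, and Col8a1 in pirfenidone library 3 (24.7 RPKM) lies below the other 2 pirfenidone libraries.

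The largest difference among the 8 was that of Col8a1, the α1 chain of type VIII collagen. Its level was 4.53, 4.87 and 2.87 RPKM in the control libraries and 33.8, 26.7 and 41.0 RPKM in the TGFα vehicle libraries. Every TGFα vehicle library was above every control. The group means were 4.09 ± 1.07 and 33.8 ± 7.17 RPKM (SD, n = 3), an 8.27-fold difference, with a log2 difference of 2.78 (SE 0.39, adjusted p = 0.0030, limma). The call held when each library was left out in turn, with adjusted p between 0.00567 and 0.0177. Without the 4 libraries that held skeletal muscle transcripts, which leaves 1 vehicle library assumed to vary like the controls, the log2 difference was 3.07 (adjusted p = 0.0406).

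The partner chain Col8a2 did not pass. Levels were 3.90, 4.42 and 2.99 RPKM in controls and 8.13, 4.62 and 5.99 RPKM in TGFα mice on vehicle. The groups did not overlap, although vehicle library 2 was only just above the highest control. Means of 3.77 ± 0.72 and 6.25 ± 1.77 RPKM gave a log2 difference of 0.59 (SE 0.30, 95% interval -0.09 to 1.27, adjusted p = 0.183, limma).

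Within a library the ratio of Col8a1 to Col8a2 does not depend on how the library was scaled. In controls both chains were at about the same level, with ratios of 1.16, 1.10 and 0.96. TGFα mice on vehicle had ratios of 4.16, 5.76 and 6.84. All 3 were above every control, and the log2 difference in mean ratio was 2.35 (exact permutation test over samples, two-sided, p = 0.1, the smallest that 3 against 3 allows).

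Col16a1, the only chain of type XVI collagen, was the other chain that rose. It measured 10.1, 9.43 and 7.93 RPKM in controls and 18.5, 25.4 and 28.3 RPKM in TGFα mice on vehicle. No library of either group reached the range of the other. The means were 9.14 ± 1.09 and 24.1 ± 5.01 RPKM (SD, n = 3), a 2.63-fold difference with a log2 difference of 1.29 (SE 0.15, adjusted p = 0.00174, limma). Adjusted p stayed between 0.000936 and 0.0114 with each library left out in turn, and was 0.0446 without the 4 libraries with skeletal muscle transcripts.

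Among the type VI chains, the α1 and α2 chains were the most abundant of the 8 transcripts and did not pass the test between TGFα vehicle and control. Col6a1 was at 96.3, 104.5 and 74.9 RPKM in controls and at 107, 97.3 and 117 RPKM in TGFα mice on vehicle. The ranges overlapped, and the log2 difference was 0.23 (95% interval -0.17 to 0.63, adjusted p = 0.374, limma). Col6a2 was at 73.4, 76.6 and 57.9 RPKM in controls and at 59.4, 64.6 and 77.6 RPKM in TGFα mice on vehicle. Its ranges overlapped too, and the log2 difference of -0.04 had an interval from -0.44 to 0.36 (adjusted p = 0.883, limma).

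Col6a3, the α3 chain that carries the large N-terminal region and the C-terminal fragment known as endotrophin, was lower in TGFα mice on vehicle. The control libraries gave 38.9, 35.0 and 26.7 RPKM and the TGFα vehicle libraries 21.1, 24.8 and 26.0 RPKM. All vehicle libraries lay below all controls, but the lowest control and the highest vehicle library were close. Means were 33.5 ± 6.23 and 23.9 ± 2.55 RPKM (SD, n = 3), and the log2 difference of -0.46 (SE 0.14) passed narrowly (adjusted p = 0.0443, limma). It no longer passed without control library 1 (adjusted p = 0.138) or 2 (0.132), without vehicle library 1 (0.10), 2 (0.102) or 3 (0.0820), or when only the 6 libraries of both groups were used (0.0723). Without control library 3 the adjusted p was 0.00765.

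Col6a5, the α5 chain, had a larger but more scattered difference. It stood at 17.3, 15.8 and 9.95 RPKM in controls and at 11.8, 4.37 and 5.20 RPKM in TGFα mice on vehicle. Vehicle library 1 fell inside the range of the controls, and the other 2 vehicle libraries were below it. The log2 difference was -0.99 (SE 0.39, 95% interval -1.89 to -0.10) and did not pass (adjusted p = 0.0992, limma). Without vehicle library 1 the difference was -1.38 with an adjusted p of 0.0252.

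Because the α1, α2 and α3 chains are built into the same unit, the level of Col6a3 was set against the mean of Col6a1 and Col6a2 within each library. This ratio was 0.458, 0.386 and 0.402 in controls and 0.253, 0.306 and 0.267 in TGFα mice on vehicle. Every vehicle library was below every control, with a log2 difference of -0.59 (exact permutation test, two-sided, p = 0.1, the smallest possible here). The ratio of Col6a2 to Col6a1, which was examined after the values had been seen, was 0.762, 0.733 and 0.773 in controls and 0.553, 0.664 and 0.665 in TGFα mice on vehicle. It too was lower in every vehicle library, by a smaller margin (log2 difference -0.27, exact permutation p = 0.1).

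Col13a1, the transmembrane chain, showed no difference that passed. Its level was 27.3, 28.9 and 17.5 RPKM in controls and 29.3, 15.3 and 19.3 RPKM in TGFα mice on vehicle. The groups covered much the same range. The log2 difference of -0.21 had a 95% interval of -0.76 to 0.33 (adjusted p = 0.546, limma).

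**Figure D2:**
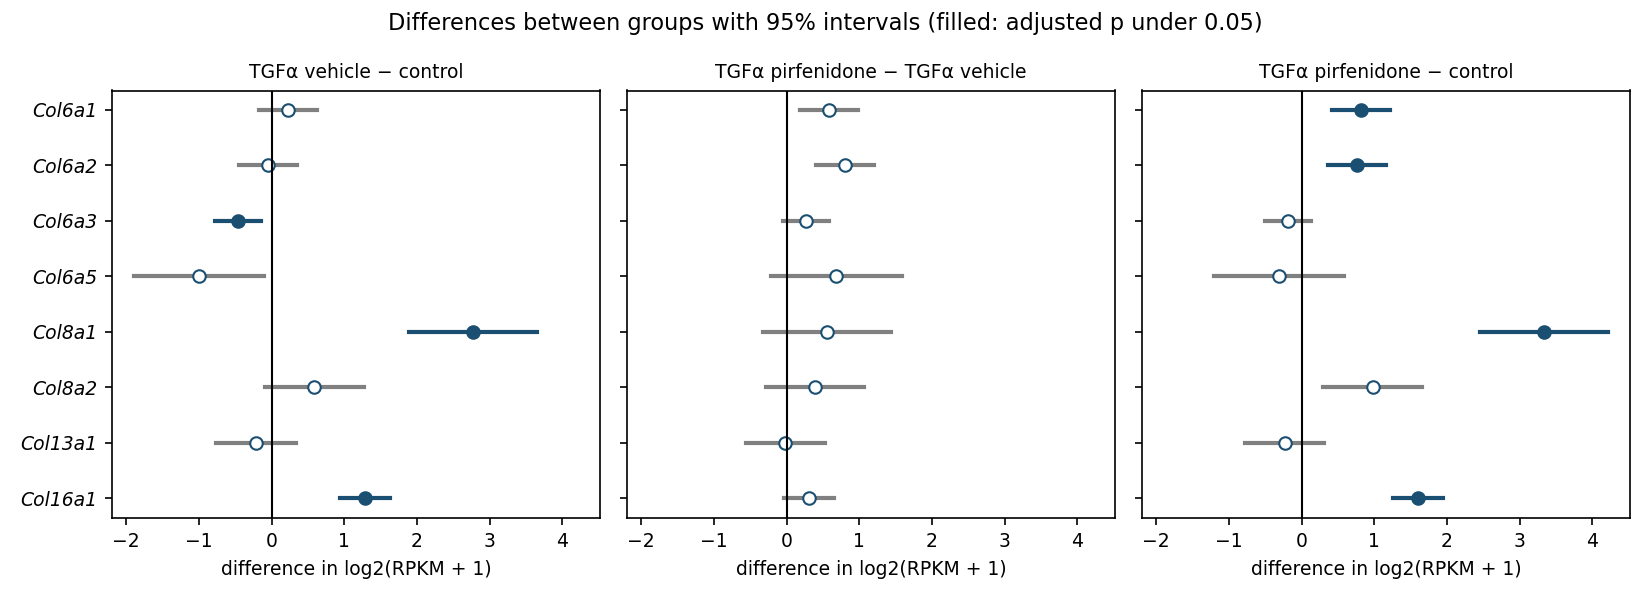
Difference between groups in log2(RPKM + 1) (x axis) for each of the 8 chains (y axis) in the 3 comparisons, with the 95% interval of the limma fit over all 9 libraries (n = 3 per group). Filled points passed at an adjusted p under 0.05: Col6a3, Col8a1 and Col16a1 in the first panel, none in the second, and Col6a1, Col6a2, Col8a1 and Col16a1 in the third.

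In TGFα mice, pirfenidone was compared with vehicle to ask whether the drug changed these transcripts. None of the 8 chains passed the test in limma-trend, and none passed with voom on the recovered reads. Over all genes 0.152% rose and 0.549% fell. At an unadjusted p under 0.05 there were 2 of the 8 chains, Col6a1 and Col6a2, and 2862 of 13849 genes. The differences of 7 of the chains were above 0, and their median over all 8 was 0.47 on the log2 scale, beside 0.03 for all genes.

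The values of Col6a1 under pirfenidone were 194, 170 and 127 RPKM, each above the 97.3 to 117 RPKM of the vehicle libraries. Means were 107 ± 9.67 RPKM with vehicle and 164 ± 34.4 RPKM with pirfenidone (SD, n = 3), a 1.53-fold difference. The log2 difference was 0.59 (SE 0.18, 95% interval 0.19 to 0.99, adjusted p = 0.130, limma).

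Col6a2 followed the same order, with 136, 128 and 91.5 RPKM under pirfenidone, all above the highest vehicle library at 77.6 RPKM. The means were 67.2 ± 9.38 and 119 ± 23.8 RPKM, a 1.76-fold difference. Its log2 difference was 0.80 (SE 0.17, 95% interval 0.40 to 1.20, adjusted p = 0.0767, limma). In both chains pirfenidone library 3 was the lowest of the 3.

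Col6a3 gave 27.7, 28.2 and 31.1 RPKM under pirfenidone, all above the vehicle range and inside that of the controls. The log2 difference from vehicle was 0.27 (95% interval -0.05 to 0.58, adjusted p = 0.303, limma). Col6a5 split by library, at 14.4, 14.5 and 6.43 RPKM, so that pirfenidone libraries 1 and 2 were above all vehicle libraries and library 3 was among them (log2 difference 0.69, 95% interval -0.21 to 1.58, adjusted p = 0.354).

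The type VIII chains showed the same split. Col8a1 was at 81.5, 58.9 and 24.7 RPKM under pirfenidone, with libraries 1 and 2 above all vehicle libraries and library 3 below all of them. The mean of 55.0 ± 28.6 RPKM gave a log2 difference from vehicle of 0.55 (SE 0.39, 95% interval -0.33 to 1.43, adjusted p = 0.444, limma). Col8a2 was at 11.2, 10.6 and 4.71 RPKM, again with library 3 low (log2 difference 0.39, 95% interval -0.29 to 1.07, adjusted p = 0.487).

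Col16a1 and Col13a1 varied little among the pirfenidone libraries. Col16a1 measured 31.3, 29.9 and 27.6 RPKM, of which library 3 was below the highest vehicle library at 28.3 RPKM (log2 difference 0.31, 95% interval -0.04 to 0.65, adjusted p = 0.285, limma). Col13a1 measured 20.4, 21.0 and 19.4 RPKM, within the range of the vehicle libraries (log2 difference -0.02, 95% interval -0.56 to 0.52, adjusted p = 0.972, limma).

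Leaving out pirfenidone library 3 changed this picture. Without it 3 of the 8 chains passed as higher with pirfenidone than with vehicle, where 7.65% of all genes rose. They were Col6a1 (log2 difference 0.76, adjusted p = 0.0177), Col6a2 (0.97, adjusted p = 0.00804) and Col8a1 (1.03, adjusted p = 0.0288). The other chains did not pass. That library also held the lowest adventitial fibroblast sum of its group, in which Dcn was the largest part, and little skeletal muscle RNA. The part of either in these differences was not tested.

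Between pirfenidone-treated TGFα mice and controls, which share their samples with both comparisons above, 4 of the 8 chains rose and none fell. They were Col6a1, Col6a2, Col8a1 and Col16a1. Of all genes tested, 10.6% rose and 7.74% fell. The median log2 difference was 0.79 over the 8 chains and 0.05 over all genes. Col8a1 and Col16a1 were above the range of the controls in every pirfenidone library.

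Col8a1 was 13.5-fold higher than in controls (log2 difference 3.33, SE 0.39, adjusted p = 0.00159, limma) and Col16a1 3.24-fold higher (1.60, SE 0.15, adjusted p = 0.000792). Both calls held without each single library. Col6a1 was 1.78-fold higher (log2 difference 0.82, SE 0.18, adjusted p = 0.0160) and Col6a2 1.71-fold higher (0.76, SE 0.17, adjusted p = 0.0206), with every pirfenidone library above every control. These 2 calls were lost without pirfenidone library 1 (Col6a1 adjusted p = 0.0541, Col6a2 0.0705) or library 2 (0.0611 and 0.0766), and that of Col6a2 without control library 1 (0.0546). Leaving out the 4 libraries with skeletal muscle transcripts left 1 pirfenidone library, assumed to vary like the controls, and log2 differences of 0.47 for Col6a1, 0.41 for Col6a2, 2.36 for Col8a1 and 1.50 for Col16a1, of which none passed.

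Col8a2 lay just short of the threshold against controls, at 2.34-fold with every pirfenidone library above every control (log2 difference 0.98, 95% interval 0.30 to 1.66, adjusted p = 0.0530, limma). It passed without pirfenidone library 3 (adjusted p = 0.00488), where 11.8% of all genes rose. Col6a3 (-0.19, 95% interval -0.50 to 0.13), Col6a5 (-0.31, -1.20 to 0.59) and Col13a1 (-0.23, -0.78 to 0.31) did not pass, and their ranges overlapped those of the controls.

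The chain ratios were also taken under pirfenidone. Col6a3 was at 0.168, 0.189 and 0.285 of the mean of Col6a1 and Col6a2, below every control, and library 3 lay inside the vehicle range of 0.253 to 0.306. Against controls the log2 difference was -0.99 (exact permutation p = 0.1), and against vehicle it was -0.40 (exact permutation p = 0.3). Col8a1 was at 7.25, 5.57 and 5.26 times the level of Col8a2, above every control (log2 difference 2.48, exact permutation p = 0.1) and overlapping the vehicle libraries (0.13, exact permutation p = 0.7). Col6a2 was at 0.700, 0.753 and 0.723 of Col6a1, above every vehicle library (0.21, exact permutation p = 0.1).

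**Figure D3:**
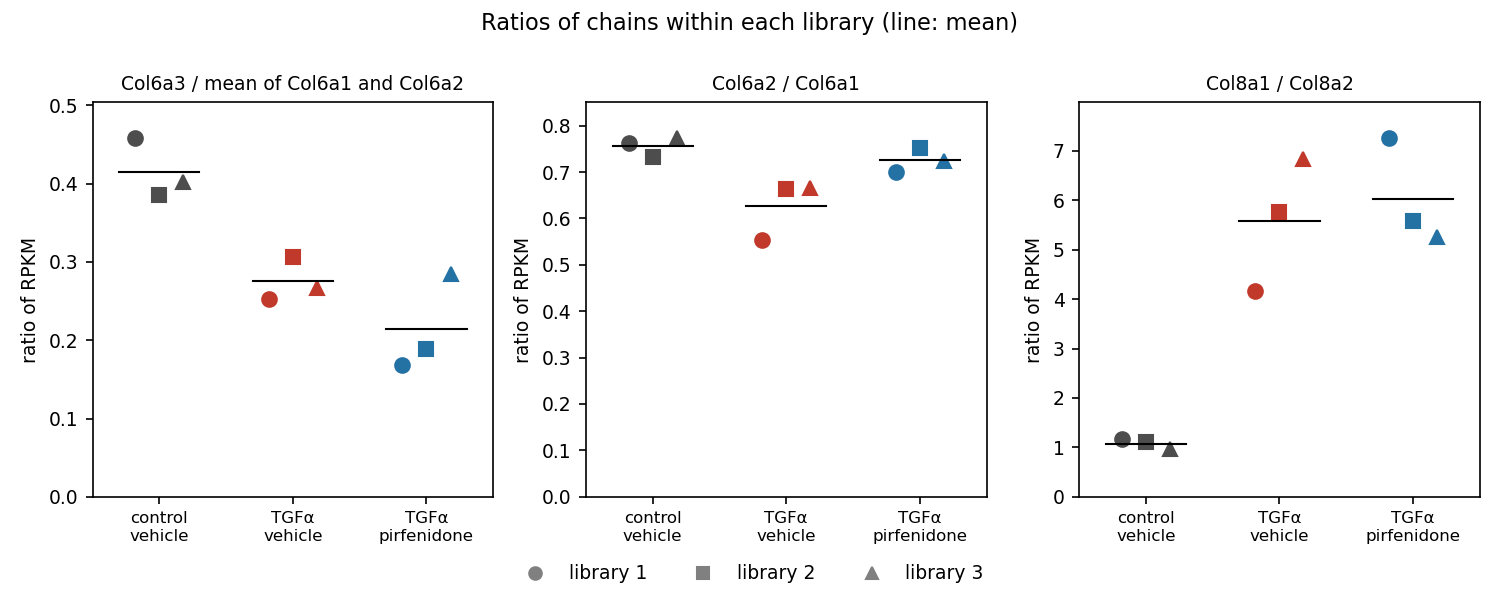
Ratio of RPKM between collagen chains within each library (y axes, from 0) in the 3 groups (x axis). Points are libraries, with shapes as library numbers, and lines are group means (n = 3). The ratio of Col6a3 to the other main type VI chains is 0.386 or more in the controls and 0.306 or less in both TGFα groups, and Col8a1 is at 0.96 to 1.16 times Col8a2 in the controls and at 4.16 to 7.25 times in the TGFα groups.

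In order of level, the control means ran from Col6a1 (91.9 RPKM) and Col6a2 (69.3) through Col6a3 (33.5), Col13a1 (24.6), Col6a5 (14.3) and Col16a1 (9.14) to Col8a1 (4.09) and Col8a2 (3.77). Neighbours whose ranges over the 3 libraries overlapped were Col6a1 with Col6a2, Col6a3 with Col13a1, Col6a5 with Col16a1, and Col8a1 with Col8a2. In TGFα mice on vehicle Col8a1 (33.8 RPKM) came next after Col6a1 (107) and Col6a2 (67.2), followed by Col16a1 (24.1), Col6a3 (23.9) and Col13a1 (21.3), and each of these 4 overlapped the next in range. Col6a5 (7.12) and Col8a2 (6.25) were lowest there. With pirfenidone the order was Col6a1 (164), Col6a2 (119), Col8a1 (55.0), Col16a1 (29.6), Col6a3 (29.0), Col13a1 (20.3), Col6a5 (11.8) and Col8a2 (8.84). In that group Col6a1 overlapped with Col6a2, Col8a1 with Col16a1 and Col6a3, and Col16a1 with Col6a3. Col6a5 and Col8a2 overlapped in both TGFα groups.

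Over the 9 libraries the chains did not vary as 1 group. As a description over libraries that include the group differences, log2 levels of Col6a1 and Col6a2 had a Pearson r of 0.94 and those of Col8a1 and Col16a1 an r of 0.96, the highest of the 28 pairs. Col8a2 followed Col6a1 (r = 0.89) and Col8a1 (r = 0.87). Col6a3 ran apart from Col6a1 (r = -0.03) and against Col8a1 (r = -0.52), and Col6a5 was closest to Col13a1 (r = 0.72).

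Beside the members, the genes of all tested whose levels were most like Col8a1 were Bicc1, an RNA-binding protein (r = 0.998), Bmp2, a bone morphogenetic protein (0.992), and Ank, a membrane protein of pyrophosphate transport (0.992). For Col16a1 they were Lrrc55 (0.995), the latent TGFβ binding protein Ltbp3 (0.990) and osteopontin, Spp1 (0.989). Col6a1 was nearest to Pros1 (0.991), Fam198b (0.989) and Numbl (0.989), and Col6a2 to Pex19 (0.986), the microfibril protein Mfap2 (0.981) and Pcolce, which enhances procollagen processing (0.979). The nearest to Col6a3 were Slc44a2 (0.966), Pde5a (0.959) and Epb4.1l3 (0.956), and to Col6a5 Ndufa4l2 (0.984), Fibin (0.980) and Cyp2d22 (0.979). Col8a2 was nearest to Wipi1 (0.978), Nosip (0.977) and Tmem108 (0.977), and Col13a1 to Il22ra2 (0.967), Mier1 (0.966) and Sgtb (0.959). Each r is over the same 9 libraries and was picked as the highest of all tested genes.

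Receptors that bind these collagens were all measurable. In TGFα mice on vehicle 1 of 10 rose and 2 fell against controls, with a median log2 difference of -0.10. Over all genes 12.0% rose and 11.2% fell in this comparison. Voom on the recovered reads called 2 of the 10. Antxr2, a cell-surface receptor that takes up type VI collagen, was at 41.6, 41.0 and 32.8 RPKM in controls, 18.6, 16.4 and 17.3 RPKM in TGFα mice on vehicle and 23.4, 25.4 and 23.6 RPKM with pirfenidone. The 3 groups did not overlap. Antxr2 fell in the vehicle group (log2 difference -1.09, SE 0.10, adjusted p = 0.00102, limma) and in the pirfenidone group (-0.65, adjusted p = 0.00494) against controls, and the difference between pirfenidone and vehicle did not pass (0.44, adjusted p = 0.0802). Antxr1, the related receptor, did not pass in any comparison (log2 difference -0.24 for vehicle against control, adjusted p = 0.22), nor did Cspg4, the NG2 proteoglycan that binds type VI collagen (-0.25, adjusted p = 0.229).

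Of the integrin chains, Itga2 fell (9.61 ± 2.35 RPKM in controls and 4.92 ± 0.16 RPKM with vehicle, log2 difference -0.82, adjusted p = 0.00802, limma) and Itga10 rose from a low level (0.90 ± 0.14 to 2.96 ± 1.03 RPKM, 1.02, adjusted p = 0.0467). With pirfenidone, 1 of the 10 receptors rose against controls (Itga10) and 3 fell (Antxr2, Itga1 and Itga2), where 10.6% of all genes rose and 7.74% fell. Itga1, the α1 integrin chain, was at 7.27, 7.98 and 8.31 RPKM with pirfenidone, below every vehicle and every control library. Its difference passed against controls (log2 difference -1.04, adjusted p = 0.0112) and not against vehicle (-0.92, adjusted p = 0.0767).

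Matrix partners of type VI collagen were listed for 9 of 10 genes, and Matn3 was below the filter. Of 8 tested, 5 rose with pirfenidone against controls, with a median log2 difference of 1.27, where 10.6% of all genes rose. In TGFα mice on vehicle 3 rose and 1 fell against controls, with a median of 0.85, where 12.0% of all genes rose and 11.2% fell. Fibronectin, Fn1, rose from 68.0 ± 7.24 to 274 ± 54.1 RPKM (SD, n = 3, log2 difference 1.98, adjusted p = 0.00183, limma). Vwa1, which links type VI collagen to perlecan at basement membranes, rose from 2.68 ± 0.52 to 6.81 ± 0.73 RPKM (1.09, adjusted p = 0.00174). The matrilin Matn2, an adaptor of matrix filaments, rose from 1.69 ± 0.27 to 4.77 ± 1.11 RPKM (1.09, adjusted p = 0.00573), and the tenascin Tnxb fell from 14.5 ± 3.77 to 5.19 ± 1.57 RPKM (-1.32, adjusted p = 0.00767). Between pirfenidone and vehicle 0 of the 8 partners and 0 of the 10 receptors passed in limma-trend or with voom. An unadjusted p under 0.05 (limma) was found for 5 partners and 3 receptors, and for 2862 of all 13849 genes tested.

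**Figure D4:**
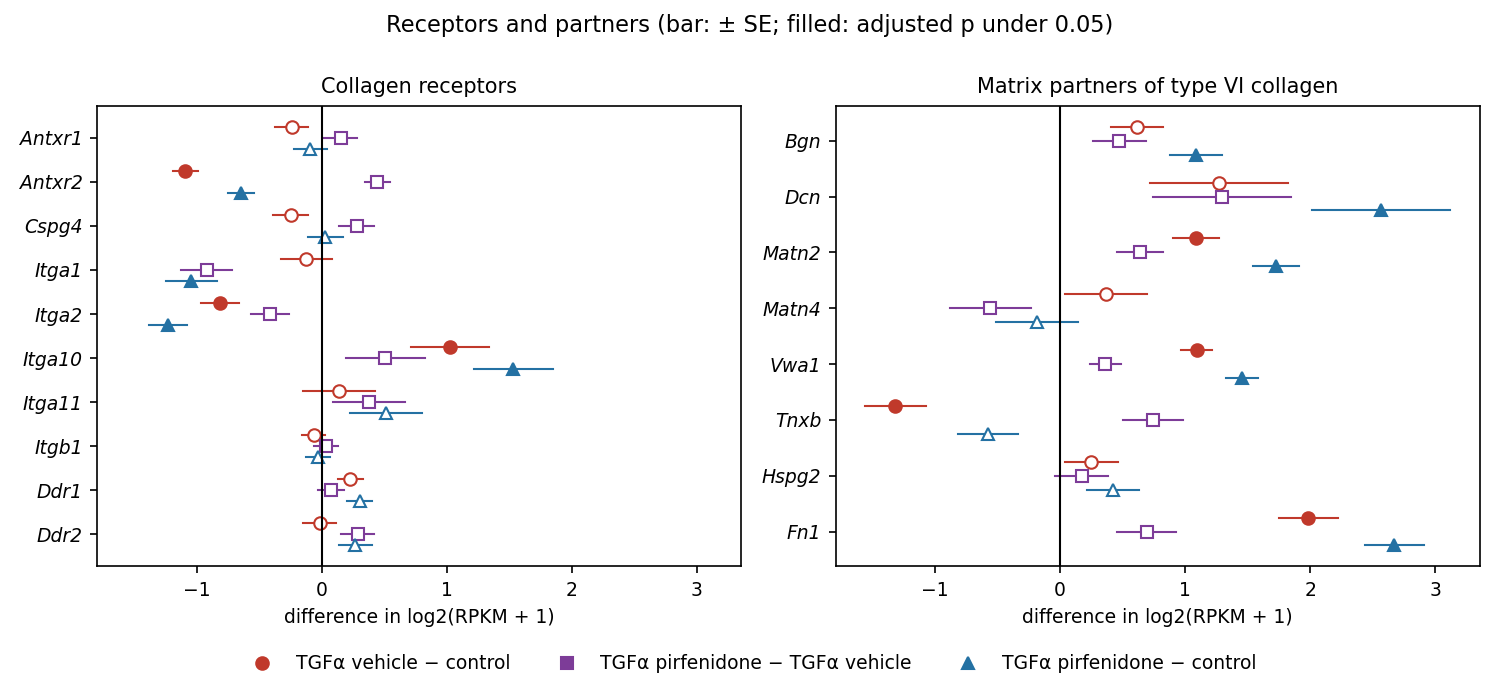
Difference between groups in log2(RPKM + 1) (x axis) for the 10 receptors (left) and the 8 tested matrix partners of type VI collagen (right), in the 3 comparisons. Points are limma estimates over all 9 libraries with bars of ± SE, and filled points passed at an adjusted p under 0.05. Antxr2 and Itga2 lie to the left of 0 in both comparisons with controls, and Fn1, Matn2 and Vwa1 lie to the right in both.

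Cell type markers that moved with these results were counted in the same fit. Against controls, 12.0% of all genes rose and 11.2% fell with vehicle, and 10.6% rose and 7.74% fell with pirfenidone. Of 7 tested markers of activated fibroblasts (Lrrc15, the remaining 1, was below the filter, and Grem1 was at 0 in a control library), 5 rose and 1 fell in TGFα mice on vehicle. Voom called 5 of the 7 there. With pirfenidone 6 of these markers rose and none fell. Their summed level over 8 genes was 231 to 283 RPKM in controls, 497 to 1180 RPKM with vehicle and 1058 to 1318 RPKM with pirfenidone. Spp1 carried most of the rise in this sum, with group means of 129, 754 and 960 RPKM. Postn, the 1 that fell, had means of 112, 79.3 and 98.3 RPKM. Of 10 adventitial fibroblast markers, 3 rose and 3 fell with vehicle, and 4 rose and 1 fell with pirfenidone, against controls. Smooth muscle markers numbered 8, of which 4 fell with vehicle and 1 with pirfenidone, and their sum was 256 to 357 RPKM in controls, 187 to 233 RPKM with vehicle and 234 to 382 RPKM with pirfenidone. Endothelial markers fell in 9 of 10 cases in both TGFα groups (1324 to 1948 RPKM summed in controls, 638 to 906 RPKM with vehicle and 779 to 807 RPKM with pirfenidone). Of 7 pericyte markers, 1 rose and 1 fell with vehicle, and 2 rose and none fell with pirfenidone. Of 11 alveolar fibroblast markers, 3 fell with vehicle, and 1 rose and 1 fell with pirfenidone. Of 7 mesothelial markers, 1 rose and 4 fell in each TGFα group, and voom called 6 of the 7 with vehicle. No chondrocyte marker passed the filter on low values. The part of these cell types in the collagen levels was not tested.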

How the data were processed

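Total lung RNA of mice, in 9 samples, was extracted with a column kit and made into Illumina libraries, per the labels. Tools and the build that the submitters' processing notes list are mm10, TopHat, DESeq, CASAVA 1.8 and bcl2fastq, with no roles, and counting method, strand setting and annotation are not stated there. RPKM values of 16165 genes, made by the authors, were deposited for the 9 libraries in a table whose header names no unit. That they are RPKM was read from the values, which gave whole reads in every library for 100% of genes when divided by the worth of 1 read (tolerance 0.0001 reads). Library totals came from these steps, and a count of 3 reads equalled 0.159 to 0.262 RPM. This floor covers counting error only.

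The test was limma-trend (limma 3.58.1, R 4.3.3) on log2(RPKM + 1), a scale that understates changes of low genes, so folds are ratios of mean RPKM and log2 differences are those of the model. All 9 libraries and the 13849 genes above 1 RPKM in 3 or more of them entered 1 model of group alone (6 residual degrees of freedom, prior 2.67). Tests were two-sided, with Benjamini-Hochberg adjustment over all tested genes within each comparison and a threshold of 0.05. Chain ratios were tested by exact permutation over samples. The fit and the read recovery were tested on simulated data. Python 3.11.15, numpy 2.4.6, pandas 2.3.3 and matplotlib 3.10.9 were used for tables and figures. Promoter windows and positions are from RefSeq on GRCm38.p6, where all 8 genes matched; the table's genes were named by their deposited symbols.

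The 8 members and all gene lists were chosen with earlier results of these data known, so their counts are descriptions. All members are described; of each further list the text gives counts and up to 4 called genes with the smallest p between TGFα vehicle and control, receptors named for a member, and the 3 genes most like each member. Itga1, Col23a1, Col12a1, Col14a1, Col20a1, Dcn, Dpt, Ebf2, Spp1 and Postn were named after their values were seen. So were the genes named as at 0 or below the filter. Alternatives were other pseudocounts, filters and scalings, no trend, only the 6 libraries compared, the replicate block and each library left out. Voom on the recovered reads and leaving out the 4 libraries with skeletal muscle transcripts were added after seeing the data.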

Additional observations from a re-analysis of the deposited data

How the results depend on the processing

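Of 384 member results under alternatives, 348 kept their direction and side of the threshold, 18 lost the call, 7 gained it and 11 changed sign; of 63 chain ratios, 61 kept their direction. Median-of-ratios scaling, the other pseudocounts and filters and voom on the recovered reads changed no member's call or direction. With each library left out in turn, 2 to 3 chains were called between TGFα vehicle and control, 0 to 3 between pirfenidone and vehicle, and 2 to 5 between pirfenidone and control. The counts were 3, 0 and 4 with all libraries, and 2, 0 and 0 without the 4 libraries with skeletal muscle transcripts, where fewer samples remain. With the replicate number as a block the counts were 3, 0 and 5: Col6a3 lost its call (adjusted p = 0.0747), and Col6a5 against control (0.0357, vehicle) and Col8a2 against control (0.0397, pirfenidone) gained one. The labels do not say whether the numbers pair the samples. Same-numbered libraries deviated together in only some pairs (correlations from -0.136 to 0.458). Differently numbered libraries had correlations from -0.607 to 0.471, so these values do not settle whether the samples are paired. Without a trend on mean expression Col6a3 had an adjusted p of 0.0507. The share of all genes called also moved with the libraries used. Between pirfenidone and vehicle 0.152% of all genes rose with all libraries and 7.65% without pirfenidone library 3. Shares over all genes under the other alternatives are not given here, so the counts of chains under them cannot be set against all genes.

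Sign changes concerned differences that had not passed the test. As log2 differences with 1 library left out, Col6a2 ranged from -0.17 to 0.041 between vehicle and control, Col13a1 from -0.22 to 0.22 between pirfenidone and vehicle, and Col6a5 from -0.53 to 0.046 between pirfenidone and control. Col6a2 was above 0 without control library 1 (0.0039), control library 2 (0.034) or vehicle library 1 (0.041), and at 0.17 without the muscle libraries. Between pirfenidone and vehicle Col13a1 was 0.22 without vehicle library 1, 0.0092 without pirfenidone library 3 and 0.0085 without the muscle libraries, which also gave -0.71 for Col8a1, -0.29 for Col8a2 and -0.035 for Col16a1. Col6a5 against control was 0.046 without pirfenidone library 3. The log2 ratio of Col8a1 to Col8a2 between pirfenidone and vehicle ranged from -0.073 to 0.29, with -0.016 without pirfenidone library 1 and -0.073 without vehicle library 1. The cause was not tested. Depth was not limiting for the members, with at least 219 reads in each library; the number of libraries was 3 per group.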

Other observations

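Other genes of the same collagen classes were mostly low or did not pass the test. Col23a1, a transmembrane collagen like Col13a1, fell from 22.2 ± 4.46 RPKM in controls to 13.04 ± 3.52 RPKM with vehicle (SD, n = 3, log2 difference -0.74, adjusted p = 0.0275, limma) and to 13.1 ± 1.25 RPKM with pirfenidone (-0.70, adjusted p = 0.0379). The remaining type VI chains, Col6a4 and Col6a6, were below the filter, as were Col10a1, the other short-chain network collagen, Col17a1 and Col25a1. Among the collagens with interrupted helices, Col16a1 was the only 1 of 4 tested that passed, and Col12a1, Col14a1 and Col20a1 did not in any comparison with controls. With pirfenidone against controls their log2 differences were 0.59 (adjusted p = 0.130, limma), 0.60 (0.188) and -0.14 (0.440). Col14a1 was at 26.2, 19.7 and 10.1 RPKM in the pirfenidone libraries, with library 3 the lowest, as for Col8a1.

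Genes for folding and modification of collagen were counted in the same fit. With pirfenidone 7 of 17 tested rose and 1 fell against controls, where 10.6% of all genes rose and 7.74% fell. In TGFα mice on vehicle 6 of the 17 rose and 1 fell against controls, where 12.0% of all genes rose and 11.2% fell. Voom called 7 of the 17 with pirfenidone and 6 with vehicle, against controls. P4ha3, a catalytic chain of prolyl 4-hydroxylase, rose from 0.645 RPKM to 5.46 RPKM (log2 difference 1.87, adjusted p = 0.00636, limma). Fkbp10, a collagen chaperone, rose from 9.49 to 18.9 RPKM (0.92, adjusted p = 0.00702), and P3h1, a prolyl 3-hydroxylase, from 6.94 to 10.2 RPKM (0.49, adjusted p = 0.0184). Colgalt2, which adds galactose to hydroxylysine, fell from 8.53 to 3.45 RPKM (-1.06, adjusted p = 0.0164). Between pirfenidone and vehicle 0 of the 17 passed in limma-trend or with voom. An unadjusted p under 0.05 (limma) was found for 7 of them, and for 2862 of all 13849 genes tested.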
